A study of Mus musculus with 12 samples.

Results

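Interferon-stimulated genes are genes whose transcription rises when a cell senses interferon, and 45 of them, chosen by symbol, were followed here in macrophages grown from the bone marrow of young and of old mice. All 45 symbols were present among the 55401 gene IDs counted, and 43 passed edgeR's filter on low counts, out of 12620 genes tested. The cells of both groups came from mice of C57BL6 background and were cultured with macrophage colony-stimulating factor (M-CSF) before bulk RNA sequencing. The young group held 6 libraries from mice aged 8 weeks and the old group 6 libraries from mice aged 12 months, with no treatment named for either. Counts assigned to genes ranged from 19345587 to 25169045 per library. Libraries are labelled as biological replicates, but whether each is from its own mouse is not stated, and the p-values below reflect only how far these 12 libraries differ among themselves. All 15 listed macrophage marker genes passed the filter, and their summed level ran from 33444 to 58324 CPM, which are counts scaled to a library total of 1000000.

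Type I interferons bind a receptor at the cell surface, whose kinases JAK1 and TYK2 phosphorylate STAT proteins, STAT2 among them. STAT2 joins IRF9 in a complex called ISGF3, which binds an interferon-stimulated response element in the promoters of the target genes. Unstimulated macrophages keep up a low, or tonic, level of this signal, and IRF7, itself a target, feeds it forward by switching on interferon genes. The products restrict viruses at many steps, as sensors of foreign RNA and DNA, as enzymes that degrade or modify RNA, and as GTPases that act on viruses and on pathogen vacuoles.

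The core of the response element was searched as GAAA, any 2 bases, GAAA, on both strands, in RefSeq promoter windows of GRCm38.p6 reaching from 250 bases before to 50 bases after the start of a transcript. A window was found for 34 of the 45 genes, and 21 of the 34 (61.8%) held a match, against 1079 of 27025 genes with a window (3.99%). With only the bases before the start these shares were 55.9% and 3.46%, and without the last A of the motif they were 67.6% and 9.76%. A match is a description of letters and shows no binding, and no factor was measured. The following stretches, 5′ to 3′ on the strand of the gene, were chosen because they hold a match, and belong to genes described below. Capitals mark the matched bases, where TTTC, any 2 bases, TTTC is the motif read from the other strand.
Isg15 (chr4:156200855-156200916, minus strand): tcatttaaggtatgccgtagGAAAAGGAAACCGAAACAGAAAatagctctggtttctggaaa
Ifit1 (chr19:34640765-34640833, plus strand): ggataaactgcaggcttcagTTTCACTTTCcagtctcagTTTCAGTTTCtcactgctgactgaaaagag
Ifit3 (chr19:34583353-34583436, plus strand): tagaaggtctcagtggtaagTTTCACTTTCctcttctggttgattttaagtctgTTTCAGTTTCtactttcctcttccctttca
Ifit3b (chr19:34607749-34607832, plus strand): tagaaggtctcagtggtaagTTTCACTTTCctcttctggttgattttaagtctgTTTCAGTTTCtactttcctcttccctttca
Oas1a (chr5:120907526-120907565, minus strand): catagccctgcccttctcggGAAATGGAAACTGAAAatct
Oas1g (chr5:120887614-120887651, minus strand): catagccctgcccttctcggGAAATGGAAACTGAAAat
Bst2 (chr8:71537567-71537622, minus strand): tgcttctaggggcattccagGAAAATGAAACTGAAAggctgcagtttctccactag
Gbp2 (chr3:142620584-142620633, plus strand): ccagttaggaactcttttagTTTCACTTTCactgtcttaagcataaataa
Isg15 held 3 overlapping matches, the first beginning at position -78 relative to its start. Its printed stretch, with the bases around the matches, ran from 98 to 37 bases before the start. The stretches of the neighbouring genes Ifit3 and Ifit3b were identical over all 84 bases, and their windows agreed at 188 of 218 aligned bases (86.2%).

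Each of the 43 tested genes had at least 20 counts in every library. Over all 12 libraries 19 genes averaged 100 CPM or more, 21 lay from 10 to under 100 CPM, and 3 (Slfn8, Iigp1 and Ifi205) lay lower. Together the 45 genes took 2210 to 9865 CPM in young and 2577 to 7131 CPM in old libraries. On a scale that allows genes to be compared, CPM per kilobase of exon, the most abundant were Bst2 (377), Ifi27l2a (345), Ifit3 (146) and Isg15 (137), then Irf7 (72.5) and Oas1a (61.3), and the least abundant tested gene was Iigp1 (1.45). Ifi44l had 0 counts in every library, which allows up to 0.119 to 0.155 CPM in a library if 3 counts are the limit of detection. Slfn1, a Schlafen family gene, had 62 counts over all libraries (0 to 0.65 CPM).

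Several families are built of near copies, and reads that aligned to more than 1 place were not counted. Of all 50-base words in the exons of Ifit3, 51.2% also occurred in another gene, mainly Ifit3b, and the share was 44.95% for Ifit3b. It was 57.6% for Oas1a and 45.7% for Oas1g, each mainly in the other, and 20.0% for Ifi204 and 18.6% for Ifi205. The levels of these 6 genes are therefore uncertain between members of a family. Exons of 12 of the 45 genes overlapped another gene in counts made without strand, by over 10% of exon bases in Gbp7, Herc6 and Rtp4.

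Libraries of the same group differed more in these genes than in most genes. The median standard deviation (SD) of log2 CPM was 0.80 over the 6 young and 0.67 over the 6 old libraries, where all 12620 genes had medians of 0.23 and 0.20. Only 5.23% of all genes in young and 6.90% in old libraries exceeded the median of the interferon-stimulated genes. In young libraries 42 of 43 genes lay above the median spread of all genes, and in old libraries 42 did. The highest library held a median of 5.33 times the lowest in the young and 3.12 times in the old group, against 1.55 and 1.46 for all genes. The ratio passed 2 for 42 of 43 genes in young and 37 in old libraries, where the shares of all genes were 28.4% and 23.5%.

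**Figure D1:**
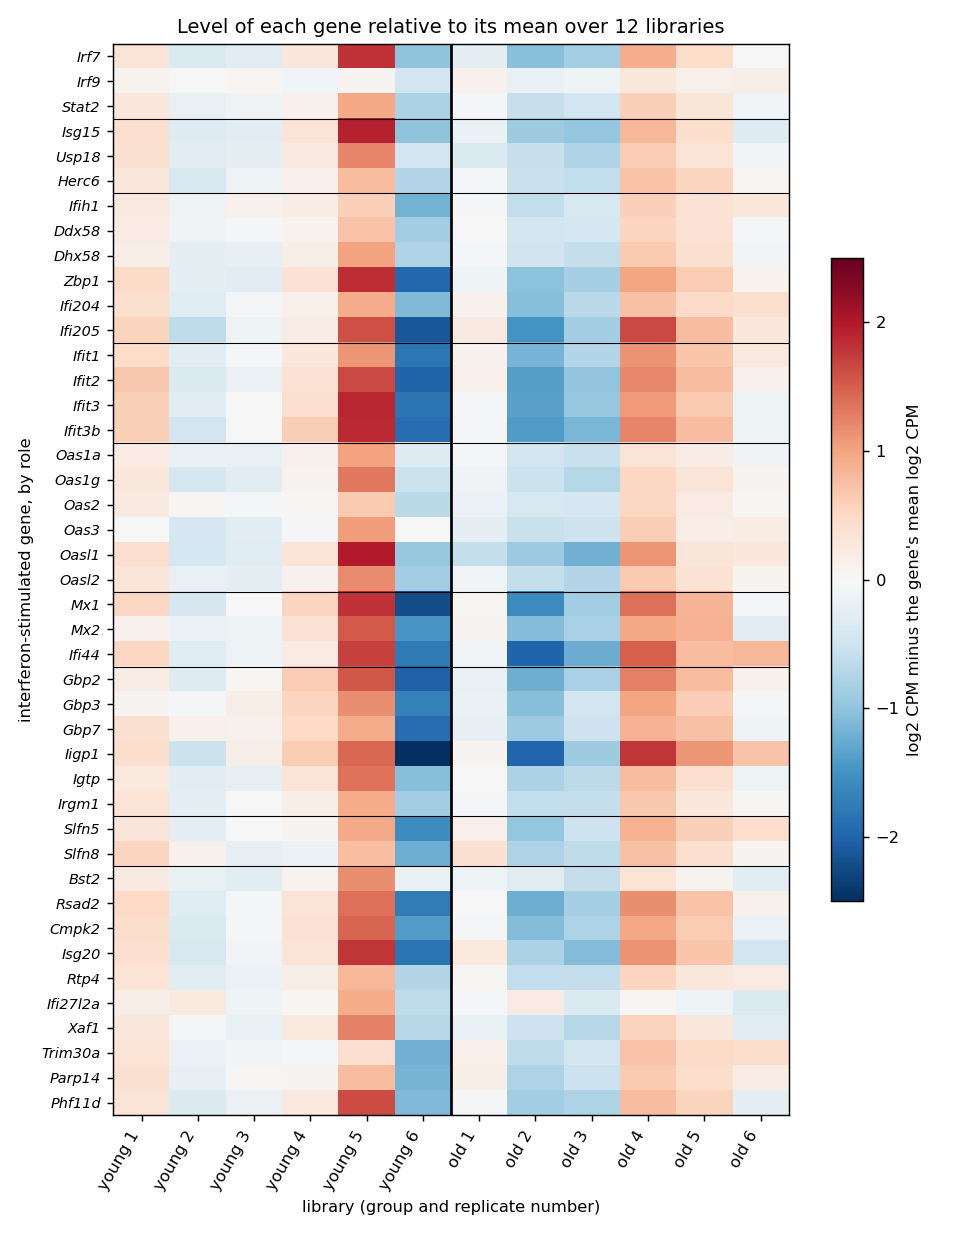
Level of each of 43 interferon-stimulated genes (rows, in blocks by role) in each library (columns), as log2 CPM minus the gene's mean over the 12 libraries, from blue (lower) to red (higher). Young replicate 5 and old replicate 4 are red in nearly every row, and young replicate 6 and old replicates 2 and 3 are blue.

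The differences followed whole libraries rather than single genes. Of the 43 genes, 42 had their highest young level in young replicate 5 and 41 their lowest in young replicate 6. The same shares over all genes tested are not given here, and other lists also gathered at these libraries. Of 15 macrophage markers 10 were highest in young replicate 5 and 11 lowest in young replicate 6. Of 50 cell cycle genes 49 were highest in young replicate 6. In the old group 42 were highest in old replicate 4, while 30 were lowest in old replicate 2 and 12 in old replicate 3. The mean log2 CPM of the 43 genes was 6.35, 5.77, 5.92, 6.25, 7.24 and 4.80 in young replicates 1 to 6. It was 5.98, 5.15, 5.31, 6.85, 6.504 and 6.06 in old replicates 1 to 6. The old values lay within the range of the young ones, whose ends were young replicates 6 and 5.

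Among the transcription factors the level of Irf7, the amplifier of the response, differed widely between libraries while that of Irf9, the DNA-binding partner in ISGF3, hardly did. Irf7 (chromosome 7, 141262706 to 141266481, minus strand, GRCm38) was at 115 CPM in the lowest, 236 in the median and 811 in the highest young library. In old libraries it was at 112, 214 and 433 CPM. Young replicate 5 lay above all other libraries, and the rest of the young libraries lay within the old range. The ratio of highest to lowest was 7.08 in young and 3.85 in old libraries for Irf7, 3.41 and 2.25 for Stat2, and 1.48 and 1.37 for Irf9. Irf9 had the smallest spread of the 43 genes in both groups and was the only one below the median of all genes.

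Isg15 encodes a ubiquitin-like protein that is joined to other proteins, Herc6 is the mouse ligase of that reaction and Usp18 removes the modifier and damps receptor signalling. Isg15 (chromosome 4, 156199455 to 156200796, minus strand) was at 39.9 CPM in the lowest, 84.4 in the median and 306 in the highest young library. In old libraries it was at 41.0, 67.6 and 143 CPM. The highest young library stood well above the other 11, and the low ends of both groups met. Usp18 differed 3.22-fold and Herc6 2.85-fold between the lowest and the highest young library.

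Sensors of nucleic acids include Ifih1, Ddx58 and Dhx58, which bind viral RNA in the cytosol, Zbp1, which senses Z-form nucleic acid, and Ifi204 and Ifi205 of a family of DNA-binding proteins. Ifi204 (chromosome 1, 173747293 to 173766943, minus strand), the most abundant per kilobase, was at 90.8, 199 and 372 CPM in the lowest, median and highest young library. In old libraries it was at 93.0, 233 and 321 CPM, so that the groups covered nearly the same range. The spread over young libraries was smallest for Ddx58 (2.98-fold) and largest for Zbp1 (14.03-fold).

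The IFIT genes, whose products bind RNA and act against viral translation, had a median difference of 12.8-fold between the lowest and the highest young library, the largest of any role, and of 5.68-fold between the old ones, where Mx1, Mx2 and Ifi44 had a larger median of 7.86-fold. Ifit3 (chromosome 19, 34583531 to 34588731, plus strand) was at 57.0, 234 and 744 CPM in the lowest, median and highest young library. In old libraries it was at 79.4, 192 and 426 CPM. The lowest and the highest of all 12 libraries were both young. Ifit1 was at 17.7, 67.6 and 134 CPM in young libraries and at 27.7, 70.3 and 134 CPM in old ones, with a log2 fold change of 0.06. The OAS family, most of whose members make the 2′-5′ oligoadenylates that activate RNase L, lay closer together, with medians of 3.19-fold and 2.30-fold. Oas1a (chromosome 5, 120896256 to 120907521, minus strand) was at 88.2, 109 and 222 CPM in young libraries and at 75.2, 106 and 141 CPM in old ones.

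Mx1 and Mx2 encode dynamin-like GTPases that act against viruses. Mx1 (chromosome 16, 97447035 to 97462907, minus strand) was at 11.9, 67.6 and 193 CPM in the lowest, median and highest young library and at 18.5, 55.7 and 145 CPM in old ones. Its 16.3-fold difference among young libraries was the second largest of the 43 genes after Iigp1. Among the immunity GTPases, which act on the vacuoles of intracellular pathogens, Gbp2 (chromosome 3, 142620602 to 142638008, plus strand) had young levels of 28.3, 122 and 337 CPM and old levels of 49.0, 112 and 273 CPM. Iigp1 differed 20.3-fold among young and 13.6-fold among old libraries at a mean of 8.42 CPM, while Irgm1, a regulator of that family, differed 3.45-fold and 2.47-fold. Slfn5 (chromosome 11, 82951349 to 82964840, plus strand), a Schlafen family gene, had young levels of 26.7, 80.8 and 152 CPM and old levels of 40.2, 96.6 and 144 CPM.

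The remaining effectors held the most abundant genes per kilobase, Bst2 and Ifi27l2a. Bst2 (chromosome 8, 71534255 to 71537456, minus strand), which encodes tetherin, a protein that holds budding virions at the cell surface, was at 271, 314 and 726 CPM in the lowest, median and highest young library. In old libraries it was at 214, 282 and 412 CPM. Young replicate 5 stood alone at the top, and the other 11 libraries lay within 214 to 412 CPM. Ifi27l2a (chromosome 12, 103442167 to 103443680, minus strand) had young levels of 99.3, 166 and 295 CPM and old levels of 120, 146 and 178 CPM, and the old libraries fell inside the young range. Xaf1 (chromosome 11, 72301629 to 72313733, plus strand), associated with cell death, had young levels of 37.0, 65.1 and 144 CPM and old levels of 37.2, 51.9 and 89.4 CPM. Rsad2, which encodes viperin, an enzyme that makes a chain-terminating nucleotide, differed 8.72-fold among young and 5.24-fold among old libraries.

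**Figure D2:**
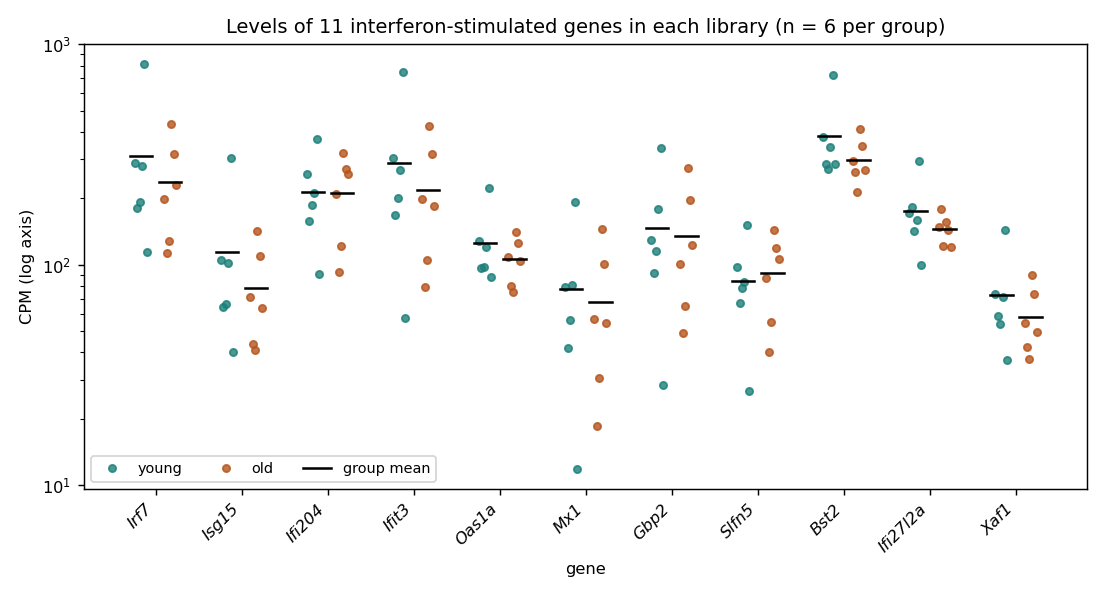
CPM (log axis) of 11 interferon-stimulated genes in each library, young beside old, with points for libraries and black lines for group means. For every gene the points of the groups overlap, and the highest young point, replicate 5, lies above all old points.

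Genes with a large spread among young libraries also had a large spread among old ones. Across the 43 genes the SD in young libraries and the SD in old libraries had a Pearson r of 0.93 and a Spearman rho of 0.95, a description across genes that share libraries within each group. The spread was larger in young libraries for 40 of 43 genes, and this difference between the groups was not tested. The median of all genes was also larger in young libraries. Because the 43 genes moved together between libraries, 40 of 43 are not separate observations. The difference rested on the libraries at the ends. The young median of 0.80 became 0.57 without young replicate 5 or without young replicate 6. The old median of 0.67 became 0.54 without old replicate 2 and 0.58 without old replicate 4. The young median of all genes, 0.232, also fell to 0.165 without young replicate 6, but was 0.225 without young replicate 5. For old libraries that of all genes, 0.200, was 0.172 without old replicate 2 and 0.204 without old replicate 4. The tested genes with a response element match had median SDs of 0.80 (young) and 0.60 (old, n = 21), and those with a window and no match 0.95 and 0.75 (n = 11).

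**Figure D3:**
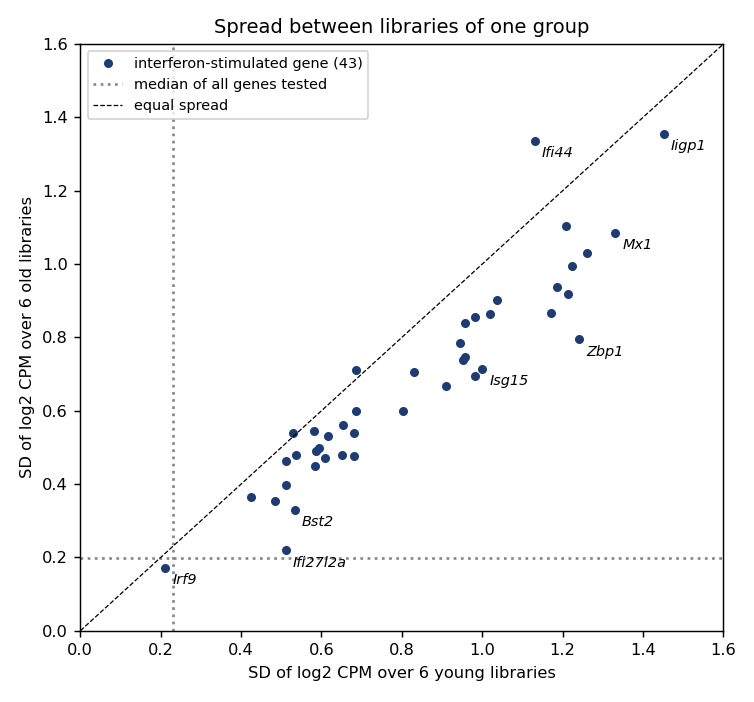
SD of log2 CPM over the 6 old libraries against that over the 6 young libraries for 43 interferon-stimulated genes, with dotted lines at the medians of all genes tested and a dashed line of equal spread. Most points lie below the dashed line and to the upper right of both dotted lines, and Irf9 is the exception near their crossing.

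The genes moved together from library to library. After each group's mean was subtracted, the 903 pairs of interferon-stimulated genes had a median Pearson r of 0.95 over 12 libraries, and all 903 were positive, while the median over all pairs of tested genes was close to 0. Without young replicates 5 and 6, the libraries farthest from the middle, the median stayed at 0.95 and 882 pairs were positive. Ifit3 followed the mean of the other members most closely (r = 0.997), and Ifi27l2a least (r = 0.65). Over the 10 libraries without young replicates 5 and 6 the r of Ifi27l2a was -0.014, whereas that of Oas3 was 0.95, against 0.78 over all 12. These values describe libraries of shared depth and make-up and carry no test.

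The 10 genes outside the set whose pattern was most like its mean, among 9381 genes of at least 5 CPM, were Il18bp, Ifi206, Mndal, Rnf213, Parp12, Parp9, Epsti1, Irgm2, Tor3a and Siglec1. Their r ranged from 0.993 for Il18bp, which encodes an inhibitor of interleukin 18, to 0.987 for Siglec1, a sialic acid receptor of macrophages. A separate list of 73 other tested interferon-stimulated genes held 8 of the 10. In that list young replicate 5 was the highest young library for 70 genes and young replicate 6 the lowest for 61. Old replicate 4 was the highest old library for 68 and old replicate 2 the lowest for 43.

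Some other gene lists moved with the same libraries. Young replicate 6 (6.34), old replicate 2 (5.64) and old replicate 3 (5.09) had the highest mean log2 CPM of 50 cell cycle genes. They were the libraries lowest in interferon-stimulated genes, and the other 9 lay from 3.67 to 4.71. Among young libraries the order of the cell cycle level was the reverse of the order of the interferon-stimulated level except for replicates 1 and 4, and among old libraries except for replicates 5 and 6. The summed macrophage markers were 33444 CPM in young replicate 6 and 40265 CPM in old replicate 2, against 45643 to 58324 CPM elsewhere. Conventional dendritic cell markers summed to 21.3 CPM and neutrophil markers to 72.6 CPM in young replicate 6, and to 303 and 222 CPM in young replicate 5. Of these markers 4 of 9 and 7 of 12 passed the filter, the most abundant being Clec10a and Csf3r, so the sums do not count such cells. Of 8 monocyte and progenitor markers 5 passed the filter. The sum of the 8 was 81.1 CPM in young replicate 6, 52.3 CPM in young replicate 5 and lowest, at 45.8 CPM, in young replicate 4. Single markers did not agree, as young replicate 6 was highest in the young group for 1 of the 5 and lowest for 2. The part of these lists in the spread was not tested, and in bulk RNA fewer cells of a type and less RNA per cell cannot be told apart. Plasmacytoid dendritic cells, a main source of interferon, left few counts, as 4 of 10 listed markers passed the filter and their sum, most of it Tcf4, was 30.1 to 81.2 CPM. The more specific marker Siglech averaged 0.65 CPM in the young and 0.64 CPM in the old group, and Klk1 was at 0 throughout.

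**Figure D4:**
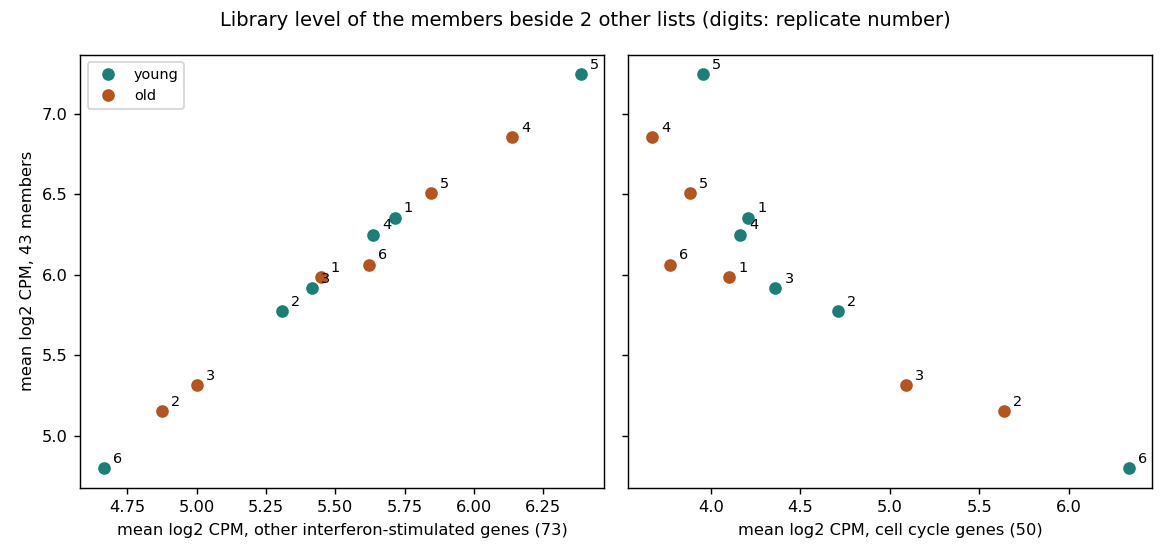
Mean log2 CPM of the 43 interferon-stimulated genes in each library against that of 73 other interferon-stimulated genes (left) and of 50 cell cycle genes (right), with digits for the replicate number. Points rise together on the left, and on the right young replicate 6 and old replicates 2 and 3 lie low at high cell cycle levels.

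Old against young macrophages was the comparison the study was designed for, and no interferon-stimulated gene passed it. The count of genes at an edgeR adjusted p below 0.05 was 0 of 43, where 2 of all 12620 genes (0.0158%) passed, 0 of them lower in old libraries. At an unadjusted edgeR p below 0.05 the count was also 0 of 43, against 690 genes (5.47%) of all, of which 283 (2.24%) were lower in old libraries, and DESeq2 gave 0 at either threshold. The ranges of young and old libraries overlapped for all 43 genes, while 26 of all genes (0.206%) had groups that did not overlap. The log2 fold changes, old minus young, ran from -0.54 for Isg15 to 0.27 for Iigp1. Their median was -0.14 with 32 of 43 negative, and the median of all genes was -0.01. The 43 genes moved as a block between libraries, so 32 signs out of 43 are not 43 independent measurements.

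By role, all 6 OAS genes had negative estimates (median -0.20), as had 8 of 10 other effectors (median -0.24), 3 of 4 IFIT genes (median -0.27) and 5 of 6 immunity GTPases (median -0.12). Both tested Schlafen genes had positive ones (0.04 for Slfn8 and 0.13 for Slfn5). The lowest p-values belonged to 5 genes. Bst2 averaged 381 ± 174 CPM in the young group and 299 ± 69.7 CPM in the old one (SD, n = 6 each). Its log2 fold change was -0.35 with a standard error of 0.25, at an edgeR p of 0.18 and an adjusted p of 0.77. Ifi27l2a averaged 175 ± 65.5 and 145 ± 22.0 CPM, a log2 fold change of -0.27 at an edgeR adjusted p of 0.78. For both genes 5 of 6 old libraries lay below the young mean. Isg15 averaged 114 ± 97.2 and 78.6 ± 39.9 CPM, a log2 fold change of -0.54 (95% interval -1.60 to 0.53) at an edgeR adjusted p of 0.81. Xaf1 and Oas1a followed at log2 fold changes of -0.34 and -0.24 and edgeR adjusted p-values of 0.81 and 0.82.

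The intervals of this comparison were wide. The standard error of a log2 fold change had a median of 0.38 over the 43 genes, against 0.13 over all genes, although Isg15 alone had from 922 to 7064 counts in a library. For Ifit3 the 95% interval of the old to young ratio ran from 0.32 to 1.75, and for Mx1 from 0.35 to 2.20. Irf9 was bounded most closely, at a ratio of 1.08 with a 95% interval from 0.92 to 1.25.

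**Figure D5:**
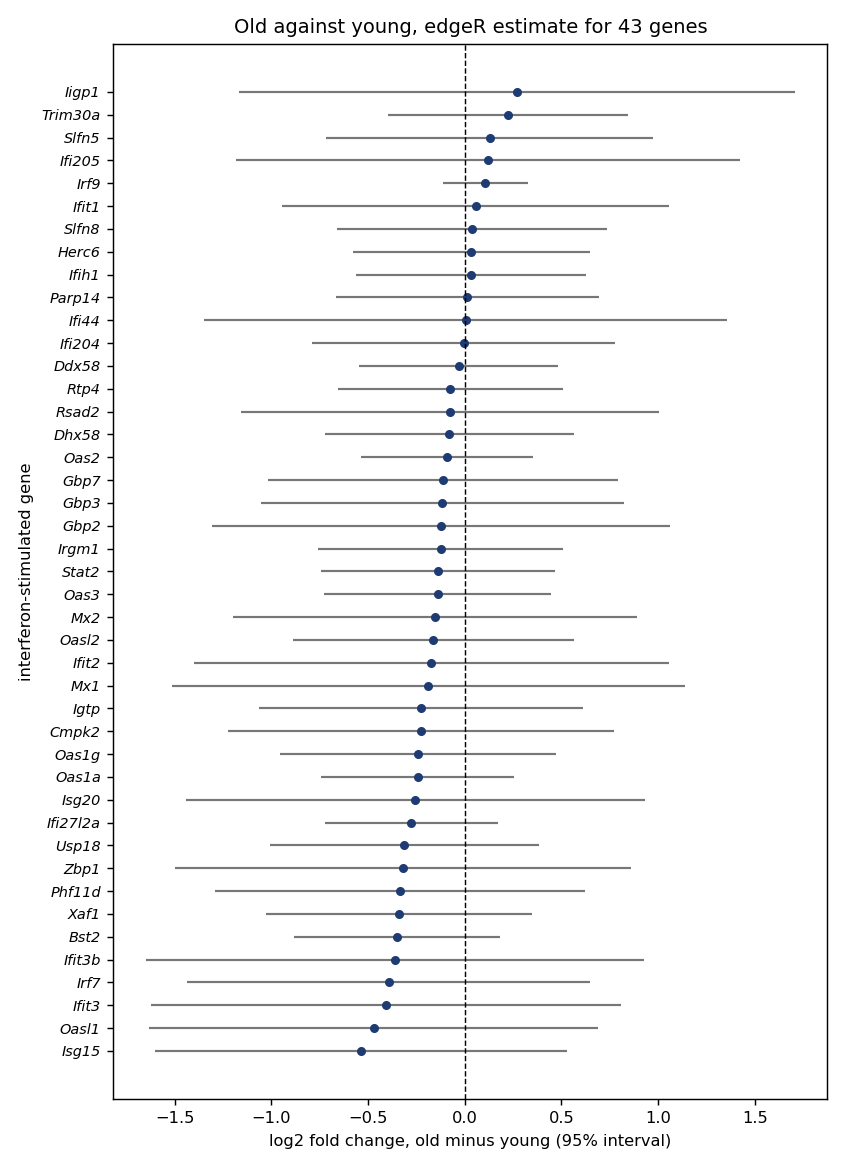
Log2 fold change, old minus young, of 43 interferon-stimulated genes with 95% intervals from edgeR, ordered by size. Every interval includes 0, and the narrowest belongs to Irf9.

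The sign of the median turned on single libraries. It was 0.17 without young replicate 5, where 5 of 43 genes were negative, and 0.0081 without old replicate 2 (21 negative). It was -0.31 without young replicate 6 (40 negative), -0.34 without old replicate 4 (41 negative), -0.23 without young replicate 2, -0.24 without old replicate 5 and -0.017 without old replicate 3. With the mean level of cell cycle genes in the model it was -0.30 (41 negative) and the median standard error was 0.20. There 4 genes, Ifit3, Ifit3b, Xaf1 and Isg15, had an unadjusted edgeR p below 0.05 (7.46% of all genes did), all negative and all at an adjusted p of 0.64. With the 3 libraries of highest cell cycle level left out the median was -0.019, and 2 genes, Trim30a and Irf9, both positive, had an unadjusted edgeR p below 0.05, against 18.1% of all genes. With young replicate 6 alone left out it was 1 gene, Ifi27l2a (5.8% of all genes). No interferon-stimulated gene passed the adjusted threshold in any of these fits.

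With the level of the 73 other interferon-stimulated genes as a covariate, a fit chosen after seeing the data, the median standard error was 0.093 and the median log2 fold change was -0.026. That fit asks whether a gene differs relative to the rest of the response. An unadjusted edgeR p below 0.05 was reached by 8 of 43 genes, against 8.77% of all genes. Xaf1 (-0.24), Isg15 (-0.31), Usp18 (-0.25), Irf7 (-0.21), Oas1a (-0.19) and Bst2 (-0.28) had negative log2 fold changes, and Trim30a (0.25), an inhibitor of Toll-like receptor signalling, and Slfn5 (0.21) positive ones. Each had an edgeR adjusted p of 0.54, so none passed.

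Genes upstream of the response were measured in the same libraries. Of 10 interferon genes none passed the low-count filter and 7 had 0 counts throughout. Ifnb1, which encodes interferon beta, had 30 counts over all libraries. The 10 genes together had 0 to 10 counts in a library, with 8 in young replicate 5, against 2 in old replicate 4 and 10 in old replicate 5. They had 0 in young replicates 1 and 6 and in old replicates 1 and 2. The receptor and its kinases were present, with Ifnar1 at 99.0 ± 11.1 and 106 ± 12.5 CPM and Ifnar2 at 137 ± 17.7 and 135 ± 12.1 CPM as means of young and of old libraries (± SD, n = 6 each, here and below). Of 9 tested receptor and kinase genes 0 passed the threshold in either direction, and the lowest p was that of Jak1 at 144 ± 35.0 and 189 ± 49.98 CPM (edgeR adjusted p = 0.77). All 9 receptor and kinase genes were lowest of the young group in young replicate 6 and 6 were lowest of the old group in old replicate 2.

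Sensing and adaptor genes that lead to interferon production gave 0 of 16 tested genes past the threshold in either direction. The most abundant was Unc93b1, which carries Toll-like receptors to endosomes, at 1038 ± 301 and 1117 ± 252 CPM, and the lowest p belonged to Tlr3, a receptor for double-stranded RNA, at 10.8 ± 2.62 and 13.7 ± 2.16 CPM (edgeR adjusted p = 0.77). Young replicate 6 had the lowest young level of 14 of the 16, and old replicate 2 the lowest old level of 12. Regulators gave 0 of 9, with the phosphatase gene Ptpn6 at 451 ± 50.5 and 405 ± 40.6 CPM and Pias1, an inhibitor of STAT signalling, at 56.9 ± 3.88 and 63.0 ± 5.48 CPM. Among the 73 other interferon-stimulated genes 0 passed, with 51 negative and a median log2 fold change of -0.07. That list overlaps the lists above, for example in Tlr3, Trim25 and Samhd1.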

How the data were processed

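RNA was made into libraries with a kit that does not keep strand, per the labels' protocols. The authors deposited whole-number read counts per gene, made with featureCounts 1.6.0 on GRCm38 with Ensembl release 100 and without multiply aligned reads, per the file headers. Fragments were not set to be counted as pairs, so counts are of alignment records. The limit given for a count of 0 covers counting error only, while intervals of fold changes cover the spread between libraries. STAR and FastQC are named in the submitters' processing notes. The share of records assigned to genes was 71.3 to 72.6%.

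Of 55401 gene IDs, 55141 had a symbol, and the other 260 held 0.0044% of counts. The chi-square per gene between 2 libraries ran from 5.12 to 182 over the 66 pairs, and no library was merged or dropped. Pairs that held young replicate 6 lay from 50.0 to 182, and all other pairs at 81.3 or less. Young replicate 6 thus differed from the other libraries over all genes and not only in the interferon-stimulated ones. The main test was that of edgeR 4.0.16 under R 4.3.3 (quasi-likelihood F test, robust, TMM factors, group alone, two-sided, Benjamini-Hochberg over 12620 genes, threshold 0.05). The test was checked on simulated data with 200 changed genes drawn from all genes tested. It recovered 2.08% of those changed 1.2-fold, 54% at 1.5-fold, 74% at 2-fold and 97.9% at 4-fold. Of 115 calls 3 were false. Recovery for the interferon-stimulated genes was not measured apart. CPM and log2 CPM (prior count 2) were computed here with TMM factors. CPM per kilobase used the deposited exon length. Promoter motifs came from a scan of RefSeq windows with Python 3.11.15.

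The 45 genes, the lists and the tests were chosen with earlier results of these data known. Named genes were, for each role, the most abundant per kilobase, the 5 of lowest p and any past the threshold, and for other lists the most abundant and that of lowest p. Genes outside that rule were named for the ends of a range or by role after their values were seen, and the printed promoters were chosen for holding a match. Other sets of settings were other scalings and filters, DESeq2 1.42.0, limma 3.58.1 (voom), a replicate block, covariates and each library left out. Pyhin1 had no match by symbol. Trex1 was listed at 0 in every library, which is not read here as absence of its transcript.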

Additional observations from a re-analysis of the deposited data

Results flagged for a closer look

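For 5 genes an end library of a group lay so far from the nearest other library that the gap, as a share of the range of the 6, passed the 95% critical value of Dixon's test. These came from 88 groups checked, and chance flags about 1 in 20, so the number of flags is near what chance gives. All 5 lay in the young group, and the rule can flag only an end library. Young replicate 6 was lowest and far from the others for Irf9 (0.723 of the range), Gbp7 (0.709) and Trim30a (0.652). Young replicate 5 was highest and far from the others for Oas3 (0.703) and Bst2 (0.661). These are the libraries at the ends of the interferon-stimulated level as a whole. As the genes moved together between libraries, the 5 flags are not 5 separate observations and add no support to that pattern.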

How the results depend on the processing

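In the main fit and in each of 24 alternatives 0 interferon-stimulated genes passed the adjusted threshold. The count over all genes, 2, became 4 without a low-count filter, 11 with DESeq2 and 5 with the cell cycle covariate, and ranged from 1 to 5 with each library left out. The labels number the libraries of both groups. Same-numbered libraries deviated together (r over 0.1) in 4 of 6 pairs, and 2 of 6 correlated best with their own number. Such correlations cannot decide whether the numbers pair the libraries, and the main fit did not pair them. With a replicate block 4 of all genes and 0 members passed, and the median standard error of the members was 0.28, against 0.38 in the main fit. Signs turned for genes near 0 in several fits. Without young replicate 5 they also turned for genes with larger estimates. Examples are Irf7 (main -0.39, then 0.17), Isg15 (-0.54, then 0.055) and Ifit3 (-0.41, then 0.13). Ifi204 (main -0.0041) was 0.024 with library size only, 0.042 with the other interferon-stimulated level as covariate and 0.16 without young replicate 6 and old replicates 2 and 3. Gbp2 was 0.021 and 0.029 in the last 2 of these, and Slfn5 was -0.074 with the cell cycle covariate. With each library left out, log2 fold changes ranged from -0.66 to 0.17 for Irf7, -0.79 to 0.055 for Isg15, -0.16 to 0.23 for Ifi204, -0.71 to 0.13 for Ifit3, -0.56 to 0.33 for Mx1, -0.46 to 0.31 for Gbp2 and -0.052 to 0.39 for Slfn5. Those of Oas1a, Bst2, Ifi27l2a and Xaf1 stayed negative in all 24 alternatives. Without young replicate 5, however, they shrank to -0.0019, -0.061, -0.063 and -0.028, in that order. The cause of these changes was not tested. Ifi44l, Slfn1 and the interferon genes did not pass the low-count filter, and why their counts were low was not tested.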
